A study of Mus musculus with 6 samples.

Results

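The genes described here are 6 interferon-linked genes, Parp9, Dtx3l, Parp14, Parp10, Parp12 and Parp11, and 3 comparison genes of the same enzyme family, Parp1, Parp2 and Parp8. They are 9 of the 56980 genes in the deposited table and were taken from it by symbol. RNA was sequenced from monocytes sorted as CD11b positive, Ly6C high and Ly6G negative out of mouse tumours grown from B16F10-mCherry, a fluorescent melanoma line. The tumours had received lipid nanoparticles (LNP) with mRNA for gasdermin E (LNP-Gsdme, 3 libraries), a protein that opens pores in membranes, or for green fluorescent protein (LNP-GFP, 3 libraries). All 6 samples carry the genotype label WT, so no allele separates the groups. The series asked how delivery of gasdermin E mRNA changes tumour monocytes and their type I interferon signalling. The labels name no mouse strain, age, dose or time, and do not say whether each library came from a separate animal. The p-values therefore rest on the spread among these 6 libraries, part of which may be technical.

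PARP enzymes take ADP-ribose from NAD+ and attach it to proteins and nucleic acids. PARP1 and PARP2 build chains of ADP-ribose at broken DNA, whereas most other members attach a single unit. Several of these single-unit enzymes, with the ubiquitin ligase DTX3L, are known as interferon-stimulated genes with roles in antiviral defence. The question put to the data was whether the interferon-linked genes differ from Parp1, Parp2 and Parp8 in monocytes of LNP-Gsdme tumours.

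In LNP-Gsdme monocytes, Parp10, Parp12 and Parp11 rose by 1.75-, 1.75- and 2.24-fold over LNP-GFP monocytes. Parp9, Dtx3l and Parp14, which lie side by side on chromosome 16, stood at 1.13-, 1.03- and 1.02-fold and did not pass the test. Parp1, Parp2 and Parp8 stood at 1.30-, 1.34- and 1.38-fold and did not pass either. Thus 3 of the 6 interferon-linked genes passed and 3 did not, and the difference between these sets was not tested. The 95% intervals of Parp9, Dtx3l and Parp14 overlap that of Parp12. The 3 comparison genes had larger fold changes than the chromosome 16 genes, with more spread among LNP-GFP libraries than the genes that rose.

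Start-site sequences are shown for Parp11, Parp12, Dtx3l and Parp1. They come from RefSeq windows of GRCm38.p6 that run from 250 bases before to 50 bases after an annotated start. Of the 9 genes, 6 had a window in that table (Dtx3l, Parp12, Parp11, Parp1, Parp2 and Parp8). Parp9, Parp14 and Parp10 had none. Each window was searched on both strands for the core of the interferon-stimulated response element, a pair of GAAA blocks separated by any 2 bases, and for the core of the gamma-activated sequence, TTCNNNGAA. Capitals mark a match.
Parp11, first start, chr6:127446590-127446889, plus strand: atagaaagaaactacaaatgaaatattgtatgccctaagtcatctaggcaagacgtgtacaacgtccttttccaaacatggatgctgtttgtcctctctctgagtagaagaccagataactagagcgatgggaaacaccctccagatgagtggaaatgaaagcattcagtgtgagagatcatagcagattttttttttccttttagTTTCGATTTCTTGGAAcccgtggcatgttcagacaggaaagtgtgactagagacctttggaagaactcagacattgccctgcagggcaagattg
Parp11, second start, chr6:127453377-127453676, plus strand: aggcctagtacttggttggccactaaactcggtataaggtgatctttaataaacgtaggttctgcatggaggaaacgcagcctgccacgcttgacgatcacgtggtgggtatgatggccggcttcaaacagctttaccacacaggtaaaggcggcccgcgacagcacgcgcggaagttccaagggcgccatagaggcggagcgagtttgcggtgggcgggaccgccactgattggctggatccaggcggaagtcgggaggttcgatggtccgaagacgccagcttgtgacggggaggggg
Parp12, chr6:39118300-39118599, minus strand: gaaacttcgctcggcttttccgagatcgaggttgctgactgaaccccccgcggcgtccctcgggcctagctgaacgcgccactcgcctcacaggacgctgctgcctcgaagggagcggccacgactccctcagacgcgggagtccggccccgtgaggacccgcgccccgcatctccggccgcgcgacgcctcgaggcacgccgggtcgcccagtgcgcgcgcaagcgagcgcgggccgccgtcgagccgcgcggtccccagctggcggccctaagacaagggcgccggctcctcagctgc
Dtx3l, chr16:35938978-35939277, minus strand: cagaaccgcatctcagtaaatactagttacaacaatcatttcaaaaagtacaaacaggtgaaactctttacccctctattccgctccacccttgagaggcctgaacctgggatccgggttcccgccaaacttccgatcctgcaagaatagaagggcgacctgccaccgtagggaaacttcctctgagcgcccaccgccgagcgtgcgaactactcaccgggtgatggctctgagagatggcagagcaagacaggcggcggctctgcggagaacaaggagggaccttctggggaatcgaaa
Parp1, chr1:180568641-180568940, plus strand: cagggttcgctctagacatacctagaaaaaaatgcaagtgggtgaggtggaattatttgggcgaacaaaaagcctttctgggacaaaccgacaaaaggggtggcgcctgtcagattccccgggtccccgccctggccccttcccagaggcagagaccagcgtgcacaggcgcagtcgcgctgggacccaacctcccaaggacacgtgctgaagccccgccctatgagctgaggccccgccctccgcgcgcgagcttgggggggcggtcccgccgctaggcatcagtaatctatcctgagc

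The first of the 2 Parp11 windows held both motifs. The response-element core was read there on the reverse strand as TTTCGATTTC, from 44 to 35 bases before the start, and TTCTTGGAA followed from 37 to 29 bases before it, so the matches overlap. The second Parp11 window, whose start is 6787 bases further along, held neither, and nor did those of Parp12, Dtx3l, Parp1, Parp2 and Parp8. Among all 32851 windows in the table, 3.44% held the response-element core and 8.30% held TTCNNNGAA. A match describes the letters in the window and is not a measured binding site, and the counts do not tell which Parp11 start was used.

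Libraries held 15991826 to 18751784 counts in LNP-Gsdme and 20233559 to 22932095 in LNP-GFP. All 9 genes passed the low-count filter, as did 16010 genes in all. CPM below are counts scaled to library size with TMM factors, and FPKM are the deposited values per kilobase of gene. Gsdme itself stood at 2.68 to 3.43 CPM in LNP-Gsdme and 2.79 to 4.44 CPM in LNP-GFP. The sort markers were in place in part: Itgam, which encodes CD11b, stood at 327 to 562 CPM in LNP-Gsdme and 365 to 632 CPM in LNP-GFP, and Ly6g at 0.155 to 0.618 CPM in LNP-Gsdme and 0 to 0.366 CPM in LNP-GFP. Ly6c2, which encodes Ly6C, stood at 1374 to 1856 CPM in LNP-Gsdme and 211 to 267 CPM in LNP-GFP, although both groups were sorted as high for it. Markers of other cells were present, and the sums of some lists differed between the groups without overlap. Those of the macrophage, neutrophil, T cell, B cell and melanoma lists overlapped between groups. All 13 mitochondrial protein-coding genes were lower in every LNP-Gsdme library, with sums of 10154 to 12356 CPM in LNP-Gsdme and 16952 to 20677 CPM in LNP-GFP. Of 6 fibroblast markers, led by Col1a1 and Col3a1, 5 were lower in every LNP-Gsdme library than in any LNP-GFP library, with sums of 2057 to 5385 CPM in LNP-Gsdme and 8591 to 9770 CPM in LNP-GFP. Of 6 NK cell markers, 2 were higher in every LNP-Gsdme library, with sums of 132 to 181 CPM in LNP-Gsdme and 36.1 to 128 CPM in LNP-GFP. Of 6 conventional dendritic cell markers 5, of 5 endothelial markers 3 and of 6 macrophage markers 2 were lower in every LNP-Gsdme library. Of all tested genes, 18.2% were lower and 19.6% higher in every LNP-Gsdme library than in any LNP-GFP library. The 7 monocyte markers, led by Csf1r and Ly6c2, summed to 4605 to 5707 CPM in LNP-Gsdme and 3336 to 3844 CPM in LNP-GFP. Of them, 3 of 7, Ly6c2 included, were higher and 1 of 7, Csf1r, was lower in every LNP-Gsdme library. The sums therefore include the Ly6c2 difference given above. No marker of these lists was at 0 in all 6 libraries. Their part in the results below was not tested, and in sorted bulk RNA fewer cells of a type and less RNA per cell cannot be told apart.

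LNP-GFP 3 lay between LNP-GFP 1 and LNP-GFP 2 for 68.5% of the 8287 genes with at least 10 CPM in every library. The other 5 libraries lay between their group's other two for 15.4 to 38.2% of these genes. Of the 9 genes here, 8 showed this order in LNP-GFP, the exception being Parp11. Results are therefore also given without that library.

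**Figure D1:**
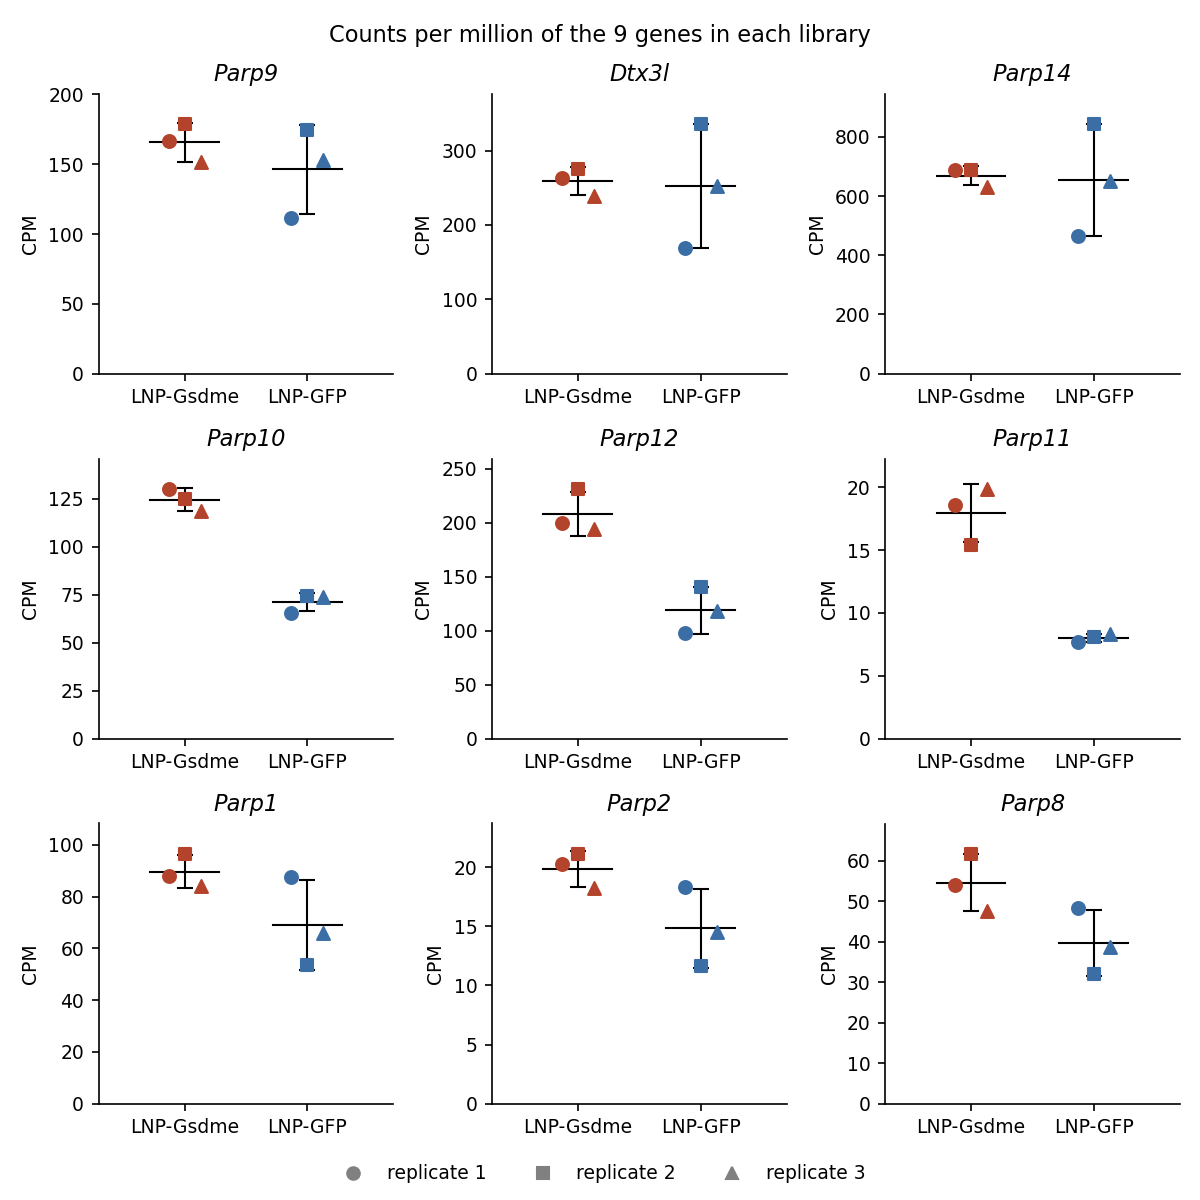
CPM (y axis from 0) of the 9 genes in the 3 LNP-Gsdme libraries (left, red) and the 3 LNP-GFP libraries (right, blue), with the mean as a bar and the SD as whiskers. Parp10, Parp12 and Parp11 do not overlap between groups, and the other 6 genes do.

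Of the 6 interferon-linked genes, 3 rose and 0 fell, against 6.30% of all tested genes that rose and 5.32% that fell. Their median log2 fold change was 0.49, against -0.01 over all tested genes. The same 3 were the members whose CPM was higher in every LNP-Gsdme library than in any LNP-GFP library, a pattern seen in 19.6% of all tested genes.

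Parp10 (ENSMUSG00000063268, chromosome 15, 76115374 to 76127641, GRCm39) encodes a transferase of single ADP-ribose units first described as a partner of MYC. It stood at 130, 125 and 118 CPM in LNP-Gsdme 1 to 3, against 65.7, 74.2 and 73.7 CPM in LNP-GFP 1 to 3. Each LNP-Gsdme library was above every LNP-GFP library, and the gap between groups was wider than the range within either. Parp10 rose, with a log2 fold change of 0.81 ± 0.08 (SE, 3 libraries in each group; adjusted p = 0.00596 by edgeR's quasi-likelihood test). It passed in all 15 alternatives, with log2 fold changes of 0.76 to 0.84 and adjusted p of 1.05e-12 to 0.0482. Its end overlaps Plec, a cytoskeletal linker gene on the same strand, by 1401 bases, of which 205 are exonic in both genes in GENCODE M21 (GRCm38). Plec held 12750 to 18413 counts in LNP-Gsdme and 18751 to 20586 in LNP-GFP. No label says how reads over the shared bases were assigned, and their part in the values of Parp10 was not tested.

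Parp12 (ENSMUSG00000038507, chromosome 6, 39063344 to 39095283) encodes a zinc-finger member of the family that restrains replication of some RNA viruses. It stood at 199, 232 and 194 CPM in LNP-Gsdme 1 to 3, against 97.7, 141 and 118 CPM in LNP-GFP 1 to 3. The groups did not overlap, but LNP-GFP 2 was 1.44 times as high as LNP-GFP 1. Parp12 rose, with a log2 fold change of 0.81 ± 0.15 (SE, 3 libraries in each group; edgeR adjusted p = 0.0248). Its call was less stable than that of Parp10. The adjusted p was 0.113 without LNP-GFP 3, 0.0908 without LNP-Gsdme 1 and 0.0948 without LNP-Gsdme 2, while the log2 fold change kept within 0.70 to 0.95 over the 15 alternatives (adjusted p 5.15e-05 to 0.113).

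Parp11 (ENSMUSG00000037997, chromosome 6, 127423803 to 127471224) encodes a transferase of single ADP-ribose units that has been linked in cell lines to turnover of the type I interferon receptor. Per length it was the least abundant of the 9 genes in every library (FPKM), with 247 to 386 counts in LNP-Gsdme and 166 to 176 in LNP-GFP. It stood at 18.6, 15.4 and 19.9 CPM in LNP-Gsdme 1 to 3, against 7.68, 8.06 and 8.29 CPM in LNP-GFP 1 to 3. The LNP-GFP libraries were close together, the highest being 1.08 times the lowest. Parp11 had the largest fold change of the 9, a log2 value of 1.17 ± 0.13 (SE, 3 libraries in each group; edgeR adjusted p = 0.00759) and ranked 245 from the top among the 16010 tested genes by log2 fold change. Without LNP-GFP 3 the adjusted p was 0.0628 at a log2 fold change of 1.20. That was the only one of the 15 alternatives in which Parp11 did not pass (adjusted p 6.03e-10 to 0.0628).

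Parp9, Dtx3l and Parp14 form a block on chromosome 16. PARP9 and DTX3L bind each other and act as a pair that marks histones and ubiquitin during the interferon response, and PARP14 carries macrodomains that read ADP-ribose. Dtx3l (ENSMUSG00000049502) spans 35746881 to 35759521 and Parp9 (ENSMUSG00000022906) 35758840 to 35792975, on opposite strands and overlapping by 682 bases at their starts. Parp14 (ENSMUSG00000034422) spans 35653244 to 35691914. In GENCODE M21 (GRCm38) 458 bases are exonic in both Parp9 and Dtx3l, and since it is not given whether counting used strand, reads there cannot be assigned with certainty.

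Parp9 stood at 167, 179 and 151 CPM in LNP-Gsdme 1 to 3, against 112, 174 and 153 CPM in LNP-GFP 1 to 3. Dtx3l stood at 263, 275 and 239 CPM in LNP-Gsdme 1 to 3, against 169, 336 and 252 CPM in LNP-GFP 1 to 3. Parp14 stood at 687, 687 and 632 CPM in LNP-Gsdme 1 to 3, against 466, 845 and 652 CPM in LNP-GFP 1 to 3. In all 3 genes LNP-GFP 1 was the lowest of the 6 libraries, and in Dtx3l and Parp14 LNP-GFP 2 was the highest, with the LNP-Gsdme libraries between. Parp9 had the same order except that LNP-Gsdme 2 came above LNP-GFP 2. The LNP-GFP libraries spread by 1.56 (Parp9), 1.99 (Dtx3l) and 1.81 times (Parp14) from lowest to highest, and the LNP-Gsdme libraries by 1.18, 1.15 and 1.09 times.

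The log2 fold change was 0.18 for Parp9 (95% interval -0.22 to 0.58; edgeR adjusted p = 0.488). It was 0.04 for Dtx3l (-0.53 to 0.60; adjusted p = 0.928) and 0.03 for Parp14 (-0.46 to 0.52; adjusted p = 0.932). All 3 intervals include the log2 fold changes of Parp1, Parp2 and Parp8. None of the 3 passed in any of the 15 alternatives. The sign of Dtx3l and Parp14 depended on the libraries and the scaling. Without LNP-GFP 1 their log2 fold changes were -0.17 and -0.15, without LNP-GFP 2 they were 0.31 and 0.26, and with upper-quartile factors -0.01 and -0.02.

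Of the 3 neighbours, Parp14 and Dtx3l kept the steadiest proportion, with the highest FPKM ratio of all libraries 1.11 times the lowest. It was 1.28 times for Dtx3l to Parp9 and 1.26 times for Parp14 to Parp9. For Parp2 and Parp8 to Parp1, genes on separate chromosomes, it was 1.10 and 1.16 times. The FPKM of Parp14 was 1.59 to 1.68 times that of Dtx3l in LNP-Gsdme and 1.60 to 1.76 times in LNP-GFP. The FPKM of Dtx3l was 1.31 to 1.34 times that of Parp9 in LNP-Gsdme and 1.29 to 1.64 times in LNP-GFP, highest in LNP-GFP 2. Set against Parp14, both Parp12 and Parp10 were higher in every LNP-Gsdme library than in any LNP-GFP library. The FPKM ratio of Parp12 to Parp14 was 0.781 to 0.907 in LNP-Gsdme and 0.448 to 0.563 in LNP-GFP, and that of Parp10 to Parp14 was 0.285 to 0.298 in LNP-Gsdme and 0.138 to 0.221 in LNP-GFP. The difference in these ratios between groups was not tested, and the ratios do not show that Parp14 was constant.

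Of the other named genes starting within 200000 bases of Dtx3l, 5 were tested and 0 were called, against 11.6% of all tested genes. Genes without a symbol and symbols beginning with Gm or ending in Rik were left out. The count says little about so few genes. Kpna1, which encodes an importin, stood at 44.6 to 47.3 CPM in LNP-Gsdme and 47.9 to 51.9 CPM in LNP-GFP (log2 fold change -0.14, edgeR adjusted p = 0.221). Fam162a, Ccdc58, Hspbap1 and Wdr5b had log2 fold changes of -0.18, 0.20, -0.03 and 0.01, with the sign of the last 2 changing between alternatives. Across the LNP-GFP libraries Kpna1 and Fam162a spanned 47.9 to 51.9 and 40.4 to 43.3 CPM, a narrower spread than that of Parp14, Dtx3l or Parp9. The less abundant Hspbap1, Wdr5b and Ccdc58 spread by 1.53, 1.53 and 1.43 times, close to the 1.56 times of Parp9.

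**Figure D2:**
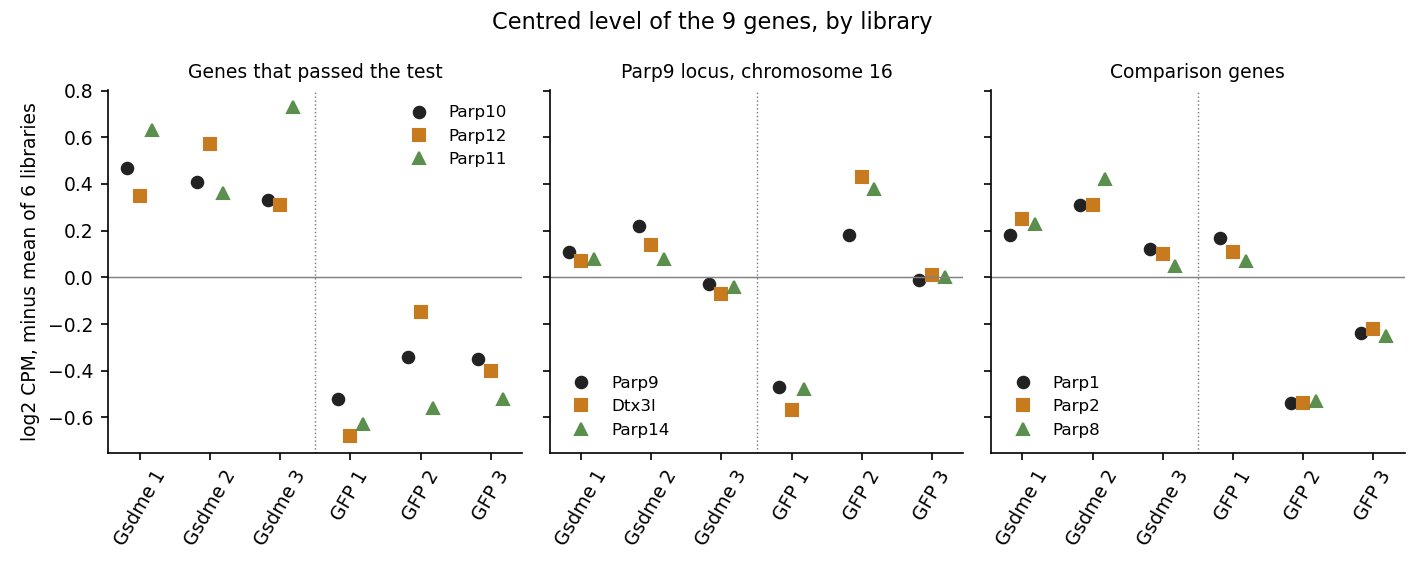
Centred level of each gene by library (log2 CPM minus the gene's mean over the 6 libraries), with LNP-Gsdme libraries left of the dotted line and LNP-GFP libraries right of it. The chromosome 16 genes are lowest in LNP-GFP 1 (-0.57 to -0.47) and high in LNP-GFP 2 (0.18 to 0.43), while Parp1, Parp2 and Parp8 are lowest in LNP-GFP 2 (-0.54 to -0.53).

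Parp1, Parp2 and Parp8 did not pass the test. PARP1 and PARP2 detect DNA strand breaks and recruit repair factors, and PARP8 is a little-studied transferase of single units. Parp1 (ENSMUSG00000026496, chromosome 1, 180396489 to 180428819) stood at 88.0, 96.7 and 84.3 CPM in LNP-Gsdme 1 to 3, against 87.7, 53.4 and 66.0 CPM in LNP-GFP 1 to 3. Parp2 (ENSMUSG00000036023, chromosome 14, 51045298 to 51058758) stood at 20.2, 21.1 and 18.2 CPM in LNP-Gsdme 1 to 3, against 18.3, 11.6 and 14.5 CPM in LNP-GFP 1 to 3. Parp8 (ENSMUSG00000021725, chromosome 13, 116991356 to 117162073) stood at 54.2, 61.8 and 47.7 CPM in LNP-Gsdme 1 to 3, against 48.3, 31.9 and 38.8 CPM in LNP-GFP 1 to 3. In all 3 genes LNP-GFP 1 lay within the LNP-Gsdme range and LNP-GFP 2 and 3 lay below it. The 6 libraries had the same order in all 3 genes.

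The log2 fold changes were 0.38 for Parp1 (95% interval -0.05 to 0.81; edgeR adjusted p = 0.204), 0.42 for Parp2 (0.00 to 0.84; 0.156) and 0.46 for Parp8 (0.05 to 0.87; 0.124). Their median was 0.42, against 0.49 for the interferon-linked genes. No interferon-linked gene was near that median, as Parp9, Dtx3l and Parp14 lay at 0.03 to 0.18 and the others at 0.81 to 1.17. Without adjustment the edgeR p was 0.0760 for Parp1, 0.0485 for Parp2 and 0.0329 for Parp8. After adjustment 0 of the 3 passed by DESeq2 or limma-voom. The calls turned on LNP-GFP 1. Without it all 3 passed, with log2 fold changes of 0.60, 0.61 and 0.64 and adjusted p of 0.0275, 0.0377 and 0.0363. More genes passed in that fit as a whole, 2841 against 1859 with all libraries. Over the 15 alternatives the highest adjusted p were 0.418, 0.351 and 0.322. Whether Parp10, Parp12 or Parp11 changed more than Parp1, Parp2 or Parp8 was not tested. The ratio of Parp10 to Parp1 FPKM was 1.31 to 1.50 in LNP-Gsdme and 0.759 to 1.41 in LNP-GFP, and that of Parp12 to Parp1 was 3.94 to 4.17 in LNP-Gsdme and 1.93 to 4.58 in LNP-GFP, so both overlapped. The ratio of Parp11 to Parp1 did not overlap, at 0.0914 to 0.135 in LNP-Gsdme and 0.0502 to 0.0865 in LNP-GFP.

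**Figure D3:**
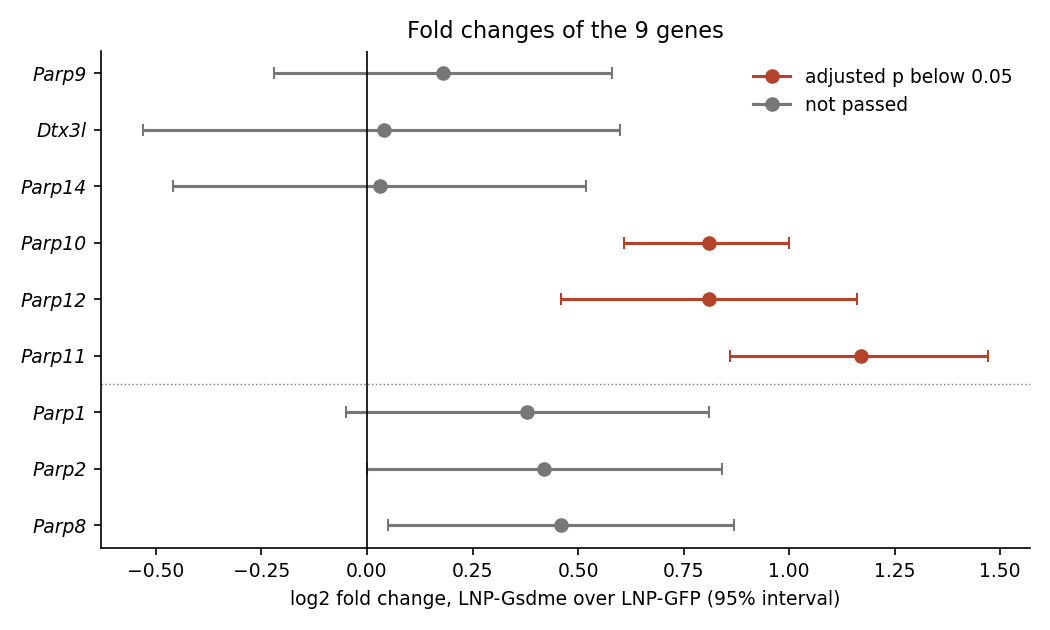
Log2 fold change (x axis, LNP-Gsdme over LNP-GFP) of each gene with its 95% interval from the edgeR fit, interferon-linked genes above the dotted line and comparison genes below it. Parp10, Parp12 and Parp11 (red) are at 0.81, 0.81 and 1.17, and the intervals of Parp1, Parp2 and Parp8 overlap those of Parp10 and Parp12, and that of Parp8 also the lower end of that of Parp11.

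LNP-GFP 1 and LNP-GFP 2 stood at opposite ends for both sets. LNP-GFP 1 was the lowest of all 6 libraries in each of the 6 interferon-linked genes and the highest LNP-GFP library in Parp1, Parp2 and Parp8. Summed over the 6 interferon-linked genes, the level was 188, 201 and 183 FPKM in LNP-Gsdme 1 to 3, and 115, 189 and 154 FPKM in LNP-GFP 1 to 3. Summed over Parp1, Parp2 and Parp8 it was 20.4, 22.7 and 19.8 FPKM in LNP-Gsdme 1 to 3, and 19.7, 12.0 and 15.0 FPKM in LNP-GFP 1 to 3. The ratio of the first sum to the second was 8.83 to 9.22 in LNP-Gsdme, inside the 5.84 to 15.7 of LNP-GFP.

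Markers of T cells and melanoma cells also put LNP-GFP 1 and LNP-GFP 2 at opposite ends of the LNP-GFP group. So did the sums of every other list except those of monocyte and B cell markers. LNP-GFP 3 also lay between them for 68.5% of genes with at least 10 CPM in every library. The order is therefore not particular to T cell or melanoma markers. The 6 T cell markers, led by Cd8a and Cd3g, summed to 449, 438 and 352 CPM in LNP-Gsdme 1 to 3, and to 410, 138 and 272 CPM in LNP-GFP 1 to 3. This is the library order of Parp1, Parp2 and Parp8, except that LNP-Gsdme 1 and 2 change places. The 6 melanoma markers, led by Dct and Tyrp1, summed to 122, 167 and 710 CPM in LNP-Gsdme 1 to 3, and to 318, 1717 and 1034 CPM in LNP-GFP 1 to 3, lowest among the LNP-GFP libraries where Parp1 was highest. For both lists 0 of 6 markers separated the groups. What part T cells or melanoma cells had in the levels of Parp1, Parp2 and Parp8, or in those of Parp9, Dtx3l and Parp14, was not tested.

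**Figure D4:**
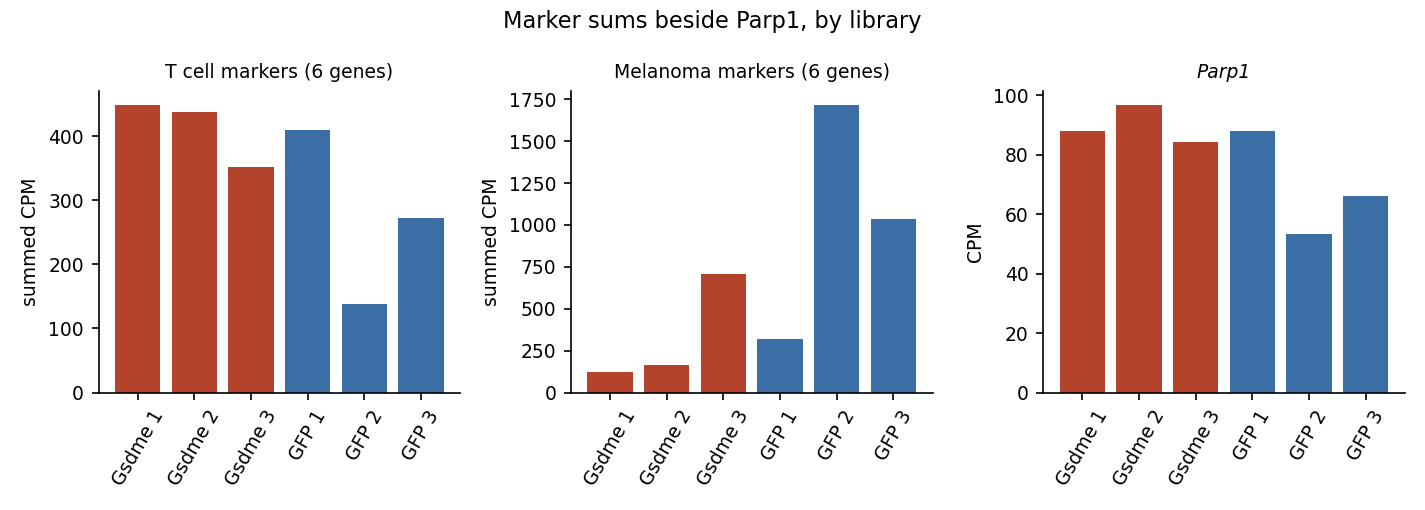
Summed CPM of 6 T cell markers (left) and 6 melanoma markers (middle) and CPM of Parp1 (right) in each library, LNP-Gsdme in red and LNP-GFP in blue, axes from 0. T cell markers and Parp1 are both lowest in LNP-GFP 2, at 138 and 53.4 CPM, where melanoma markers are highest, at 1717 CPM.

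Per length of gene, Parp14 was the most abundant of the 9 in every library, at 57.3 to 60.4 FPKM in LNP-Gsdme and 40.9 to 72.5 FPKM in LNP-GFP. In LNP-Gsdme the order was then Parp12 (46.5 to 54.8 FPKM), Dtx3l (34.1 to 38.1), Parp9 (25.4 to 29.1), Parp10 (16.9 to 17.7), Parp1 (11.8 to 13.2), Parp8 (4.70 to 5.90), Parp2 (3.27 to 3.69) and Parp11 (1.20 to 1.60). No neighbours in that order overlapped in LNP-Gsdme. In LNP-GFP the order of means was the same except that Dtx3l (23.3 to 45.4 FPKM) came before Parp12 (23.0 to 32.5 FPKM). There 5 of the 8 neighbouring pairs overlapped, namely Parp14 with Dtx3l, Dtx3l with Parp12, Parp12 with Parp9, Parp10 with Parp1, and Parp8 with Parp2.

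**Figure D5:**
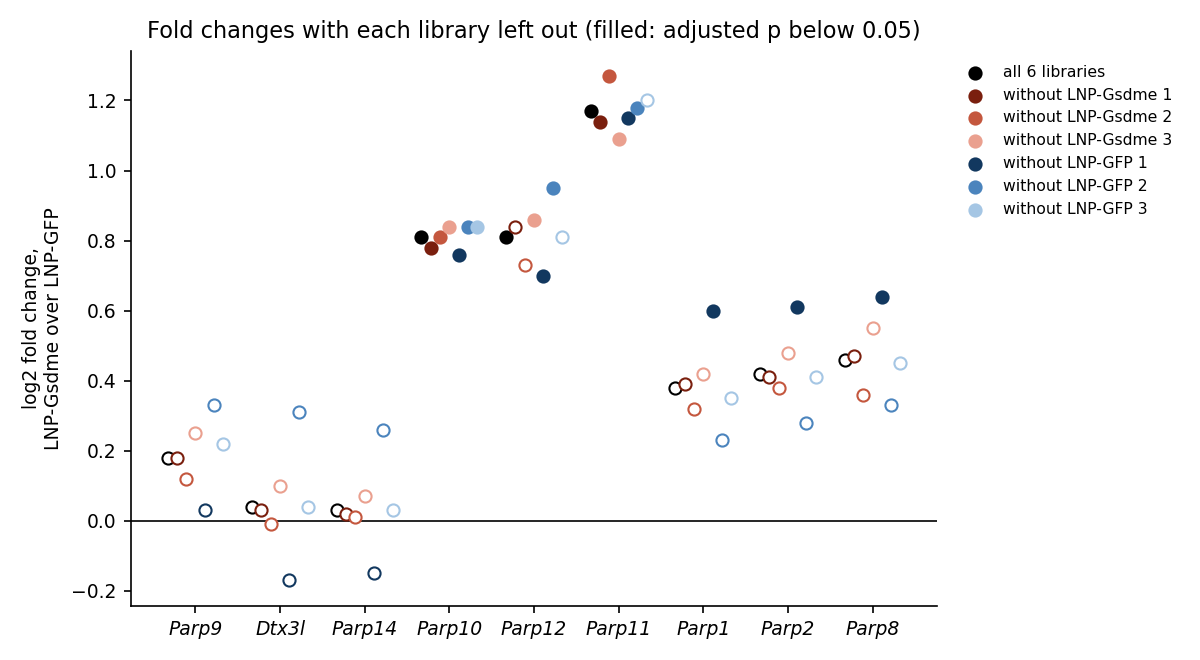
Log2 fold change (y axis, LNP-Gsdme over LNP-GFP) of each gene with all 6 libraries (black) and with each library left out in turn (red tones without an LNP-Gsdme library, blue tones without an LNP-GFP library), filled where the adjusted p is below 0.05. Parp10 is filled throughout, Parp12 is open in 3 of the 6 left-out fits, and Parp1, Parp2 and Parp8 are filled only without LNP-GFP 1.

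Other genes of ADP-ribosylation and related pathways were together called about as often as all genes. In lists of other ADP-ribosyltransferases, ADP-ribose hydrolases and readers, repair partners of PARP1, NAD+ enzymes and Deltex ligases, 43 of 45 genes were tested, of which 3 rose and 2 fell. The background was 11.6% of tested genes called in either direction. The median log2 fold change was 0.15 over these lists together, against -0.01 over all tested genes. Without LNP-GFP 3, 0 of these genes passed, and 1 passed without LNP-Gsdme 1 or without LNP-Gsdme 2, 3 without LNP-GFP 2 and 8 without LNP-GFP 1.

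Of 8 other transferases, Parp3, which acts at DNA double-strand breaks, rose and 7 did not pass. Parp3 stood at 34.5, 35.4 and 39.0 CPM in LNP-Gsdme 1 to 3, against 24.2, 19.5 and 22.7 CPM in LNP-GFP 1 to 3, without overlap (log2 fold change 0.71 ± 0.11 SE, n = 3 per group; edgeR adjusted p = 0.0169). Zc3hav1, the zinc-finger antiviral protein also called PARP13, stood at 413 to 485 CPM in LNP-Gsdme and 350 to 434 CPM in LNP-GFP, with overlap (log2 fold change 0.22, edgeR adjusted p = 0.210). Tiparp, a transferase induced through the aryl hydrocarbon receptor, stood at 318 to 369 CPM in LNP-Gsdme and 285 to 299 CPM in LNP-GFP and did not pass (edgeR adjusted p = 0.125). Zc3hav1 and Tiparp were named after their values were seen.

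Of 11 hydrolases and readers, Macrod1, a mitochondrial enzyme that removes single ADP-ribose units, fell and 10 did not pass. It was low in both groups, at 0.787 to 1.49 CPM in LNP-Gsdme and 2.70 to 3.66 CPM in LNP-GFP (log2 fold change -1.41 ± 0.28 SE, n = 3 per group; edgeR adjusted p = 0.0284). Of the repair partners of PARP1, Hpf1, Xrcc1 and Lig3 did not pass.

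Of 13 tested NAD+ enzymes, Bst1 rose and 12 did not pass. Bst1, a surface enzyme of myeloid cells that splits NAD+, stood at 201, 183 and 198 CPM in LNP-Gsdme 1 to 3, against 121, 102 and 114 CPM in LNP-GFP 1 to 3 (log2 fold change 0.79 ± 0.09 SE, n = 3 per group; edgeR adjusted p = 0.00820). It passed in 14 of 15 alternatives, with an adjusted p of 0.0672 without LNP-GFP 3. Of 3 tested Deltex ligases related to Dtx3l, Dtx4 fell to 50.2 ± 7.65 CPM in LNP-Gsdme, against 73.1 ± 3.55 CPM in LNP-GFP (SD, n = 3 each; edgeR adjusted p = 0.0356), and Dtx2 and Dtx3 did not pass. The call of Dtx4 was lost whichever library was left out, and over its 15 alternatives the adjusted p reached 0.135. The calls of Parp3 and Macrod1 held in 3 and 2 of the 6 fits with 1 library left out.

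Type I interferon acts on these genes through factors that include STAT2 and IRF9, which bind the response element within a complex. Stat2 stood at 149, 159 and 129 CPM in LNP-Gsdme 1 to 3, against 73.8, 130 and 102 CPM in LNP-GFP 1 to 3, with overlap (log2 fold change 0.52, edgeR adjusted p = 0.141). Irf9 stood at 125, 138 and 117 CPM in LNP-Gsdme 1 to 3, against 96.2, 120 and 150 CPM in LNP-GFP 1 to 3 (log2 fold change 0.05, edgeR adjusted p = 0.854). Stat2, like the chromosome 16 genes and Parp10 and Parp12, was lowest in LNP-GFP 1 and highest among the LNP-GFP libraries in LNP-GFP 2. Among genes of interferon receptors and signalling, Ifngr2, a chain of the interferon gamma receptor, and Tyk2, a kinase of the type I receptor, rose by 0.49 and 0.68 on the log2 scale (edgeR adjusted p = 0.0360 and 0.0477). The calls of Ifngr2 and Tyk2 were lost without LNP-GFP 2, LNP-GFP 3, LNP-Gsdme 1 or LNP-Gsdme 2, with adjusted p up to 0.136 and 0.156 over their alternatives.

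The mean profile of the 6 interferon-linked genes, as centred log2 CPM, was 0.28, 0.29 and 0.20 in LNP-Gsdme 1 to 3, and -0.56, -0.01 and -0.21 in LNP-GFP 1 to 3. The 5 tested genes nearest to it over the 6 libraries, by root mean square distance, were Carhsp1, Ifi206, Ddit3, Plekhm1 and Mrpl1. Their distances were 0.0345 to 0.0678 on the log2 scale. That search left out the genes described here, genes without a symbol and symbols beginning with Gm or ending in Rik. Carhsp1, an RNA-binding protein gene, stood at 206 to 212 CPM in LNP-Gsdme and 115 to 166 CPM in LNP-GFP and passed (edgeR adjusted p = 0.0473, lost in 6 of 15 alternatives, among them those without LNP-GFP 3, LNP-Gsdme 1, LNP-Gsdme 2 or LNP-Gsdme 3). The other 4 did not pass. Likeness over 6 libraries mixes the group difference with the spread among LNP-GFP libraries.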

How the data were processed

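RNA from 6 sorted monocyte samples was sequenced as paired-end libraries with an Illumina TruSeq RNA kit, per the labels' protocols, and grouped by the treatment label. The authors deposited 1 table with raw counts and FPKM per gene, per the file headers. Coordinates are those of GRCm39, a build named in the submitters' processing notes. For the aligner, the counter, the annotation release and the use of strand, the answer is the same: not given in the sources used here. All per-sample columns were mapped to a sample. FPKM were used for levels between genes and ratios, counts for all tests. Symbols were missing for 1542 of 56980 genes.

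Counts were filtered with filterByExpr, scaled with TMM factors and tested with edgeR 4.0.16 (robust quasi-likelihood, R 4.3.3) over all 16010 genes kept, with Benjamini-Hochberg adjustment and a threshold of 0.05. The SE is the log2 fold change divided by the square root of F, and the interval is 95%. Replicate spread as a biological coefficient of variation was 0.193. The script was tested on simulated data with 200 changed genes. Alternatives were DESeq2 1.42.0, limma-voom 3.58.1, a fit without robust estimation, other scalings, other low-count filters, a replicate block, each library left out, and a threshold of 0.01 for counts of calls. Start-site windows came from RefSeq (GRCm38.p6), and their coordinates are not those of the deposited table. Exon overlaps came from GENCODE M21 (GRCm38).

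The 9 genes and all lists were chosen with earlier results of these data known. Besides the 9 genes, the text names up to 4 called genes of each list, Stat2 and Irf9, the tested neighbours of Dtx3l, the 5 genes nearest to the mean profile, and the leading markers. Some results that this rule would name are not reported here. Samples with the same replicate number were checked for shared deviations, and the numbers were not used to pair samples.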

Additional observations from a re-analysis of the deposited data

How the results depend on the processing

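Over 15 alternatives, Parp10 passed in all and Parp9, Dtx3l and Parp14 in none, and of 495 single-gene values under alternatives 406 kept their direction and side of the threshold, 64 lost the call, 10 gained one and 15 changed sign. The number of all genes called was 1859 (1008 higher, 851 lower). It was 3047 (1543 and 1504) with DESeq2, 183 (131 and 52) at adjusted p under 0.01, and 88 to 2841 (64 to 1625 and 24 to 1216) with 1 library left out. The lowest counts came without LNP-GFP 3 and the highest total without LNP-GFP 1. With 1 library left out, 1 to 3 interferon-linked genes rose (1 without LNP-GFP 3), 0 to 3 of Parp1, Parp2 and Parp8 passed (3 without LNP-GFP 1), and 0 to 8 genes of the ADP-ribosylation lists were called, against 5 with all libraries and 1 at adjusted p under 0.01. The cause was not tested.

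Same-numbered samples had correlations of deviations of 0.214, -0.237 and 0.0315, and differently numbered samples -0.326 to 0.319. With so few samples and such a range, the check cannot decide whether same-numbered samples belong together. A fit with the replicate block called 155 genes (103 higher, 52 lower), 2 interferon-linked genes (Parp10 and Parp11, with Parp12 at an edgeR adjusted p of 0.0537), 0 of Parp1, Parp2 and Parp8 and 1 gene of the ADP-ribosylation lists, and Wdr5b had a log2 fold change of -0.01 with the block.

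Signs changed only for log2 fold changes near 0. With upper-quartile factors they were -0.01 for Dtx3l, -0.02 for Parp14 and -0.04 for Wdr5b, and Wdr5b was at -0.03 with limma-voom. With 1 library left out they ran from -0.17 to 0.31 for Dtx3l, -0.15 to 0.26 for Parp14, -0.08 to 0.23 for Irf9, -0.27 to 0.15 for Hspbap1 and -0.24 to 0.23 for Wdr5b. Upper-quartile factors moved the median log2 fold change of all genes by -0.05. Macrod1, Wdr5b, Ccl24 and Mgl2 lay at a few CPM in LNP-Gsdme, where counting error is larger.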

Other observations

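PARP14 is also known as a cofactor of STAT6, the factor that carries interleukin 4 signals. Of 12 tested genes of a list of that pathway and its targets, Stat6 rose and Ccl22, Ccl24 and Mgl2 fell, with a median log2 fold change of -0.31. Of all tested genes 6.30% rose and 5.32% fell, with a median of -0.01. Stat6 stood at 240, 242 and 213 CPM in LNP-Gsdme 1 to 3, against 193, 162 and 173 CPM in LNP-GFP 1 to 3 (log2 fold change 0.39, edgeR adjusted p = 0.0443). Ccl22, a chemokine gene of alternatively activated macrophages and dendritic cells, stood at 11.9, 13.9 and 8.97 CPM in LNP-Gsdme 1 to 3, against 29.8, 45.6 and 35.9 CPM in LNP-GFP 1 to 3 (log2 fold change -1.68, edgeR adjusted p = 0.0116). Ccl24, an eosinophil chemokine gene, stood at 1.50 to 2.63 CPM in LNP-Gsdme and 6.37 to 12.9 CPM in LNP-GFP (log2 fold change -2.22, edgeR adjusted p = 0.0157). Mgl2, a lectin of the same cells, stood at 2.36 to 3.66 CPM in LNP-Gsdme and 6.63 to 7.79 CPM in LNP-GFP (log2 fold change -1.22, edgeR adjusted p = 0.0182). Parp14 itself was at 632 to 687 CPM in LNP-Gsdme and 466 to 845 CPM in LNP-GFP. Without LNP-GFP 3, none of the 4 calls held, with adjusted p of up to 0.159 over the alternatives of these genes. Of 6 conventional dendritic cell markers 5, and of 6 macrophage markers 2, were lower in every LNP-Gsdme library than in any LNP-GFP library, against 18.2% of all tested genes, and their part in the fall of Ccl22, Ccl24 and Mgl2 was not tested.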
